A study of Mus musculus with 21 samples.

Results

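The genes described here are a chosen set of 35 for bile acid synthesis, sensing and transport in the liver, taken by gene symbol from the annotation of the array. Some exporters in the set move cholesterol or phospholipid instead. All 35 were measured, among 25428 genes in all: 12 enzymes of synthesis and conjugation, 5 sensors and signalling proteins, 5 uptake carriers and 13 exporters and their partners. RNA of whole liver lysates was hybridised to Affymetrix expression arrays, 1 array per animal, from 10 Gata4-LSEC-KO mice and 11 sibling controls labelled wt, all on the diet labelled std. Knockout animals came from crossing the driver line C57BL/6N-Tg(Clec4g-icre)1.1Sgoe, in which Clec4g sequences direct Cre to liver sinusoidal endothelial cells, to the floxed line STOCK Gata4tm1.1Sad/J. The labels did not say which of these alleles the controls carried, and gave neither age nor sex. In every liver Xist was high and 3 Y-linked genes were low, the pattern of females. Values are log2 expression values in which 1 unit is a doubling, and a difference is knockout minus control with its standard error. Hybridisation strength differs between probes, so the signals of 2 genes are not read as their relative abundance.

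Hepatocytes make bile acids from cholesterol, either through Cyp7a1 and Cyp8b1 in the neutral pathway or through Cyp27a1 and Cyp7b1 in the acidic one. The bile acid receptor FXR, encoded by Nr1h4, senses them and induces the repressor SHP, encoded by Nr0b2, while the intestinal hormone FGF15 represses Cyp7a1 through the receptor Fgfr4 and its partner beta-Klotho, encoded by Klb. Carriers of the blood-facing membrane take bile acids up, and ATP-driven pumps of the canalicular membrane send them into bile. Gata4 was deleted in endothelium, whereas most of these genes are expressed mainly by hepatocytes.

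Of the 35 genes, 8 were lower in knockout livers at an adjusted p under 0.05 and none was higher, by limma with Benjamini-Hochberg adjustment over all 25428 genes. Over all genes, 7.33% passed, 4.05% lower and 3.28% higher. The 8 were the receptor Nr1h4, the co-receptor Klb, the enzymes Cyp27a1, Slc27a5 and Baat, the uptake carrier Slco1b2, and the pumps Abcc2 and Abcg2. They were 13.1% to 38.5% lower, so each change was modest, and in none did the 2 genotypes' ranges stay apart (0.130% of all genes had ranges that did not overlap). At an unadjusted p under 0.05, 13 of the 35 were lower and 3 were higher (Amacr, Fgfr4 and Abcg5), against 13.0% and 9.41% of all genes. The median difference of the 35 was -0.08, beside -0.01 over all genes. Rows of mean signal at or above the median of all rows, a filter on dim probes, included 34 of the 35 genes. Of these 34, 23.5% were lower and none higher, against 7.06% lower and 5.58% higher among all genes that met the filter. Across single-liver exclusions, 7 to 9 of the 35 were lower, but only 1 was in run 1 alone (Abcg2) and 2 in run 2 alone (Nr1h4 and Abcc2). Of all 25428 genes, 629 to 1471 were lower across those exclusions, 1 in run 1 alone and 735 in run 2 alone.

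**Figure D1:**
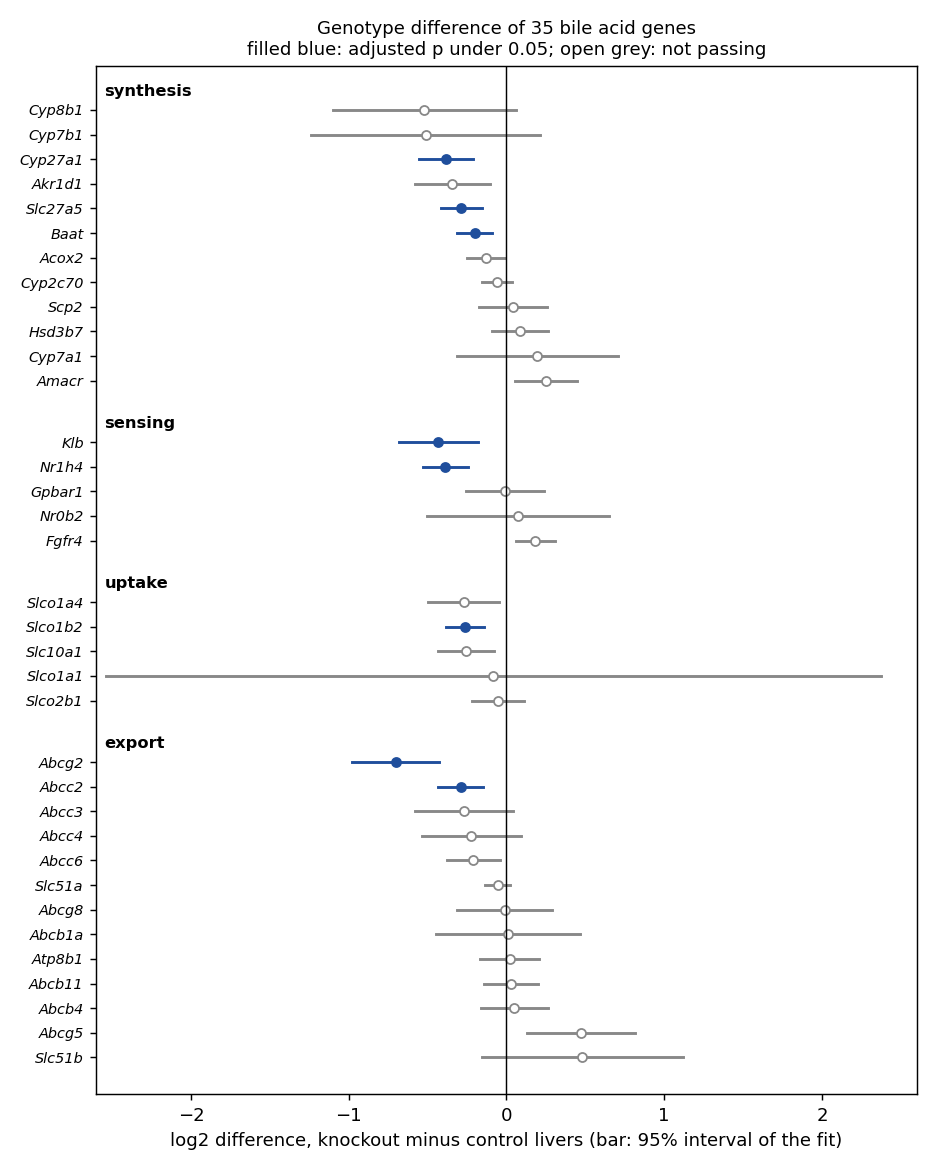
Genotype difference of the 35 genes, knockout minus control on the log2 scale (horizontal axis), with the 95% interval of the fit, grouped by role; filled blue points passed at an adjusted p under 0.05. All 8 filled points lie to the left of 0, Abcg2 farthest at -0.70, and the interval of Slco1a1 is the widest.

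Endothelium is a minor part of a whole liver, and the deleted gene did not pass there: Gata4 differed by -0.19 ± 0.10 (adjusted p = 0.264), and Clec4g, whose promoter drives the Cre, by -0.92 ± 0.23 (adjusted p = 0.0176). Fewer cells of a type and less RNA per cell cannot be told apart in such lysates. Of 10 measured hepatocyte markers, 1 was higher (Hpx) and none lower, with summed log2 levels of 131.2 to 132.3 in knockout livers and 130.5 to 132.0 in control livers. Some of these probes hardly varied in any liver: Alb was 13.75 to 13.81 in both genotypes and Ahsg 13.51 to 13.61, genes singled out after their values were seen. The steady sum therefore does not measure hepatocyte content. Among markers of other cell types, 7 of 10 sinusoidal markers were lower (sums 63.0 to 71.3 in knockout livers and 66.8 to 77.8 in control livers), 5 of 10 Kupffer cell markers were higher (67.6 to 78.8 and 56.3 to 77.4) and 4 of 10 stellate markers were higher (64.7 to 69.8 and 58.7 to 69.0). None of 8 measured bile duct markers passed (sums 31.0 to 38.7 in knockout livers and 29.9 to 34.0 in control livers). Of 10 pericentral genes, Cyp1a2 and Glul were lower (sums 86.4 to 97.0 and 92.2 to 97.2), none of 8 measured periportal genes passed (77.6 to 82.8 and 76.9 to 82.6), and 3 of 12 acute-phase genes were higher (109.0 to 133.1 and 100.1 to 122.9). None of 12 clock genes passed (70.8 to 77.7 and 74.7 to 80.4). Log2 array values have no zero, and the part of these shifts in the results below was not tested. All arrays held the same distribution of values, with a median of 3.75.

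Among the sensors, the receptor gene Nr1h4 was lower and its target Nr0b2 was not changed at the threshold. Nr1h4 ranged from 8.26 to 8.93 with a median of 8.50 in knockout livers, and from 8.57 to 9.40 with a median of 8.92 in control livers. Every knockout liver was under its run's control mean, 6 of 10 below every control, although the ranges overlapped. The difference was -0.39 ± 0.07 (adjusted p = 0.00264), which is 23.5% lower. Nr0b2 encodes SHP, the repressor that FXR induces. Its levels ran from 6.64 over a median of 7.82 to 8.82 in knockout livers and from 6.66 over 7.57 to 9.12 in control livers, a difference of 0.07 ± 0.28 with a 95% interval of -0.51 to 0.65 (adjusted p = 0.919). The groups covered the same span, and an interval this wide leaves room for a fall as large as that of Nr1h4.

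The receptor for FGF15 consists of Fgfr4 and beta-Klotho, and of their genes Klb was lower while Fgfr4 did not pass. Klb was 7.94, 8.67 and 9.05 at its lowest, median and highest in knockout livers, against 8.78, 9.07 and 9.35 in control livers. All 10 knockout livers were below the control mean of their run and 6 below the lowest control. The difference was -0.43 ± 0.12 (adjusted p = 0.0337). That call was lost, with adjusted p up to 0.0632, when any of 8 single livers was left out (knockout replicates 4, 6, 7 and 9, control replicates 6, 7, 8 and 9). Fgfr4 was 7.80, 7.95 and 8.30 in knockout livers and 7.56, 7.83 and 7.99 in control livers, with 9 of 10 knockout livers above the control mean of their run, and differed by 0.18 ± 0.06 without passing (adjusted p = 0.0646). It passed without control replicate 5 (0.0485) or knockout replicate 6 (0.0331). Within a liver, the log2 value of Fgfr4 minus that of Klb was -1.14 to -0.02 with a median of -0.70 in knockout livers, and -1.47 to -0.94 with a median of -1.32 in control livers. The shift of 0.61 was tested by exact permutation of genotype labels within runs (two-sided p = 1.72e-05, adjusted over 3 gene pairs 5.15e-05), and was 0.56 in run 1 and 0.66 in run 2. This subtraction was chosen because the values of the 2 genes had been seen to differ, so its p is no independent evidence. Gpbar1, the membrane bile acid receptor, stayed low, at 3.97 to 4.57 in knockout livers and 3.75 to 4.88 in control livers (difference -0.01 ± 0.12, adjusted p = 0.980).

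Promoter sequences of RefSeq, assembly GRCm38.p6, were found for 27 of the 35 genes and are shown for the 6 of the 8 lower genes that the table holds, for Abcb11 as a classical FXR target that did not pass, and for the shared promoter of Abcg5 and Abcg8. Each runs 5′ to 3′ up to the base before the transcription start, on the strand of the gene: Nr1h4 chr10:89506659-89506908 on the minus strand, Klb chr5:65348311-65348410 on the plus strand, Cyp27a1 chr1:74713435-74713534 on the plus strand, Slco1b2 chr6:141629418-141629517 on the plus strand, Abcc2 chr19:43782208-43782307 on the plus strand, Abcg2 chr6:58584403-58584532 on the plus strand from the first of its 3 listed starts, and Abcb11 chr2:69342617-69342716 on the minus strand. The last is chr17:84683012-84683120, the 109 bases between the divergent starts of Abcg5 and Abcg8, read on the strand of Abcg8. Capitals mark the nuclear receptor half-site AGGTCA, which reads TGACCT where it lies on the other strand, and its extension CAAGGTCA known for LRH-1. They also mark AGATAA, the only form of the GATA motif searched, which reads TTATCT where it lies on the other strand. The windows shown for Klb and Cyp27a1 hold none of these exact letters. Other forms of the GATA motif are not marked, such as TGATAA for Klb and AGATAG for Slco1b2 and Abcb11.
Nr1h4: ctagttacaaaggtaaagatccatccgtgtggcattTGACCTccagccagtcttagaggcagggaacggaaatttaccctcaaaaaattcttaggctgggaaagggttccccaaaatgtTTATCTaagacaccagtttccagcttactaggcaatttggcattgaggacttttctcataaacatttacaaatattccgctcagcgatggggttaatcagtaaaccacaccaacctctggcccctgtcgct
Klb: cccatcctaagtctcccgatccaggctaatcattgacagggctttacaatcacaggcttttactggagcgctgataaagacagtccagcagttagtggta
Cyp27a1: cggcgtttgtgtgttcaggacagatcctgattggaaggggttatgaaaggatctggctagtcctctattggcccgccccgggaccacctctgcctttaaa
Slco1b2: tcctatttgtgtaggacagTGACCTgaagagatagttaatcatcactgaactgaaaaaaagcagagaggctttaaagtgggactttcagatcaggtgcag
Abcc2: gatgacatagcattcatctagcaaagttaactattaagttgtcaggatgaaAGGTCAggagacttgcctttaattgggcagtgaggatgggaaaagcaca
Abcg2: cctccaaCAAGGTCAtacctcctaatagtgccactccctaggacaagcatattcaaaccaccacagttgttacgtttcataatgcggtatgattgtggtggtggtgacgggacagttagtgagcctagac
Abcb11: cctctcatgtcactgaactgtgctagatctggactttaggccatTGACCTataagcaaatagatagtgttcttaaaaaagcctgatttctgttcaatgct
Abcg5-Abcg8: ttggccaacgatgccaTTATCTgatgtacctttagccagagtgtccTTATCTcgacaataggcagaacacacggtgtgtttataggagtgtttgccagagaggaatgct

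In the 250 bases before a start, AGGTCA on either strand stood in 13 of the 35 promoter windows of the 27 genes. The share was 14% among all 32851 promoters of the table. Those 13 windows belonged to 12 genes, among them Nr1h4, Slco1b2, Abcc2, Abcg2 and Abcb11. The FXR inverted repeat, which is that half-site and its mirror with 1 base between them, was in none of the 27 and in 0.00609% of all, CAAGGTCA, which contains AGGTCA, in Abcg2 alone and in 1.33% of all, and the palindromic HNF1 motif in none and in 0.00913% of all. The HNF4A motif CAAAGTCCA was found for Cyp2c70 and Cyp8b1, in 2 of the 35 promoter windows, against 0.384% of all promoters. The GATA form AGATAA, added after the values were seen, was found for Nr1h4, Cyp2c70 and both Abcg5 and Abcg8, which share their window. That is 4 of the 35 promoter windows, against 9.99% of all. Other forms of the GATA motif were not searched, and neither were inexact forms of the FXR repeat or the HNF1 motif. The exact FXR repeat was in only 2 of all 32851 promoters and the HNF1 motif in 3. With exact letters this rare, finding none among the 27 genes says little about those genes. The window shown for Abcb11 holds the FXR repeat with 1 letter changed, around its marked half-site. A match of letters is a description of the window, not a binding site.

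In synthesis, Cyp27a1 of the acidic pathway and both conjugation enzymes were lower, while Cyp7b1 of the acidic pathway and Cyp7a1 and Cyp8b1 of the neutral one did not pass. No difference between the pathways was tested. Cyp27a1, the mitochondrial sterol 27-hydroxylase, was 10.28, 10.42 and 10.93 at its lowest, median and highest in knockout livers, against 10.55, 10.89 and 11.17 in control livers. Of the knockout livers, 8 were below every control, and only replicate 5, at 10.93, exceeded the control mean of its run. The difference was -0.38 ± 0.08 (adjusted p = 0.00821), or 23.4% lower. Slc27a5 encodes the CoA ligase that activates bile acids for conjugation. It was 10.26, 10.49 and 10.75 in knockout livers against 10.54, 10.78 and 10.96 in control livers, with 5 knockout livers below every control. The difference was -0.29 ± 0.06 (adjusted p = 0.00916) and was alike in the runs, at -0.27 and -0.30. Baat, which joins the activated acid to taurine or glycine, was 9.66, 9.87 and 10.06 in knockout livers and 9.86, 10.05 and 10.25 in control livers. It differed by -0.20 ± 0.05 (adjusted p = 0.0234), again with all 10 knockout livers below the control mean of their run.

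Cyp7a1, the rate-limiting enzyme of the neutral pathway, was 10.32, 11.71 and 12.25 at its lowest, median and highest in knockout livers and 9.96, 11.45 and 12.40 in control livers. The groups overlapped almost wholly, and the difference of 0.20 ± 0.25 (adjusted p = 0.706) had a 95% interval of -0.32 to 0.71. Cyp8b1, the 12-alpha-hydroxylase that sets the share of cholic acid, reached lower in the knockout, at 6.94, 8.92 and 9.86 there against 8.72, 9.25 and 9.89 in control livers. Its difference of -0.52 ± 0.28 did not pass (adjusted p = 0.281), though 4 knockout livers lay below every control. Cyp7b1, the oxysterol 7-alpha-hydroxylase of the acidic pathway, was 6.56, 7.38 and 9.57 in knockout livers and 7.29, 7.92 and 9.26 in control livers, a difference of -0.51 ± 0.35 (adjusted p = 0.420) that was -1.57 in run 1 and 0.27 in run 2 (adjusted p of the genotype by run term 0.253). The SD within genotype, pooled over both genotypes and without removing run, was 0.66 for Cyp7a1, 0.67 for Cyp8b1 and 0.85 for Cyp7b1. For Cyp8b1 it was 0.89 in knockout livers and 0.35 in control livers. Cyp7a1, Cyp8b1 and Cyp7b1 were among the most variable genes of the set, and their intervals, from the fit with a run term, were wide.

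**Figure D2:**
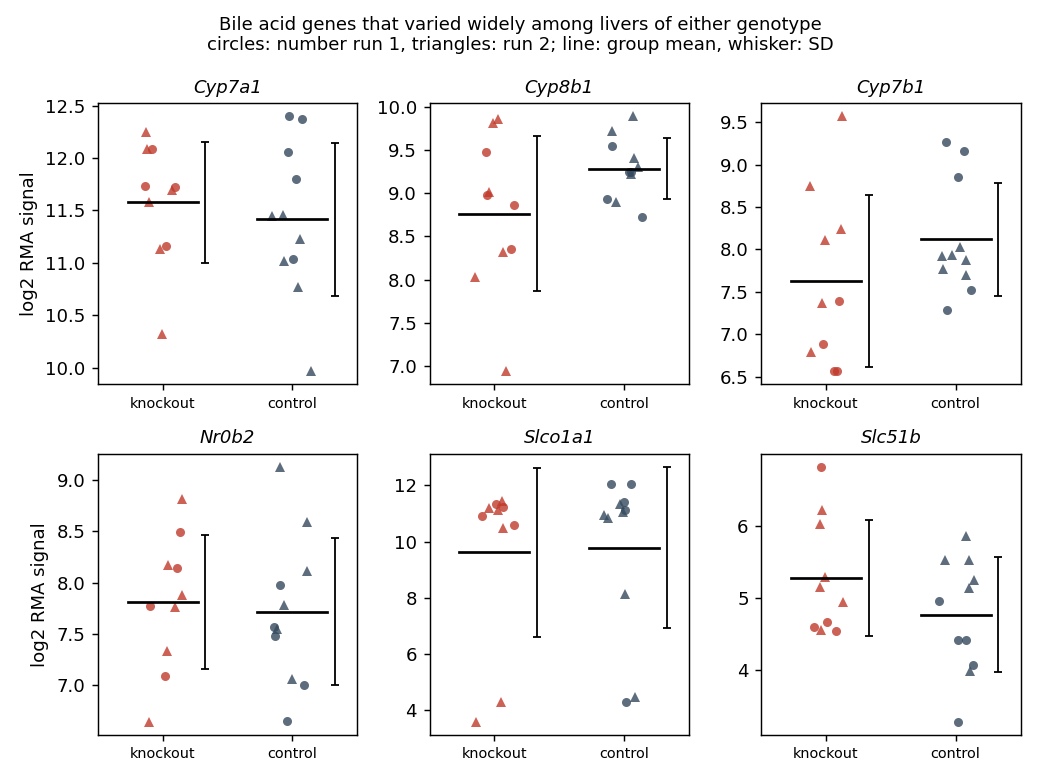
Log2 values by liver for Cyp7a1, Cyp8b1, Cyp7b1, Nr0b2, Slco1a1 and Slc51b, with knockout livers to the left of control livers in each panel, circles for run 1, triangles for run 2, lines at group means and whiskers of 1 SD. The SD within each genotype is larger than the distance between group means, except among the Cyp8b1 controls. Cyp8b1 has an SD of 0.35 in control livers and 0.89 in knockout livers. Slco1a1 falls below 5 in 2 livers of each genotype.

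Of the other enzymes none passed. Akr1d1, the reductase of the steroid ring's double bond, was 8.67, 9.26 and 9.49 in knockout livers and 9.23, 9.43 and 10.20 in control livers, with all 10 knockout livers below the control mean of their run, and differed by -0.34 ± 0.11 (adjusted p = 0.0724, and 0.0495 without control replicate 6). Amacr, the racemase of side-chain shortening, differed the other way by 0.25 ± 0.09 (adjusted p = 0.112), with 5 knockout livers above every control. Acox2, the peroxisomal oxidase of the same step, differed by -0.13 ± 0.06 (adjusted p = 0.191). Hsd3b7, the dehydrogenase that follows the first hydroxylation, Scp2, a thiolase and carrier of side-chain shortening, and Cyp2c70, the mouse enzyme that makes muricholic acids, differed by between -0.06 and 0.08 with adjusted p of 0.473 to 0.876. Cyp2c70 had a 95% interval of -0.15 to 0.03.

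**Figure D3:**
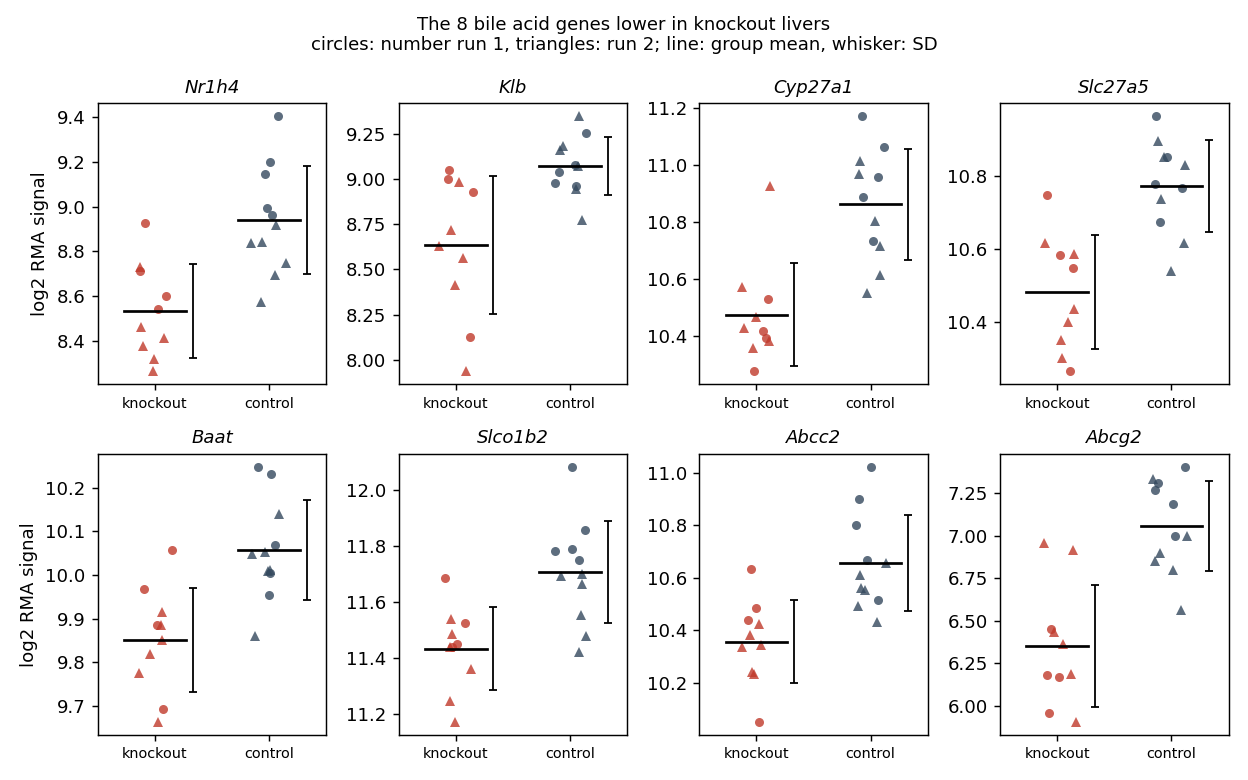
Log2 values by liver for the 8 genes that passed lower, knockout livers to the left of control livers, with circles for run 1, triangles for run 2, lines at group means and whiskers of 1 SD. In each panel the knockout livers sit lower and overlap the control livers, and at most 8 of the 10 knockout livers lie below every control, in Cyp27a1 and Abcg2.

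Of the 5 uptake carriers 1 passed, lower. All 5 differences were below 0, as were those of 13955 of the 25428 genes, but Slco1a1 (0.84) and Slco2b1 (0.21) were above 0 in run 1 alone. Slco1b2, the liver's OATP carrier for conjugated and unconjugated bile acids, was 11.17, 11.44 and 11.69 at its lowest, median and highest in knockout livers against 11.42, 11.70 and 12.08 in control livers. All 10 knockout livers were below the control mean of their run, and 3 were below every control. The difference was -0.26 ± 0.06 (adjusted p = 0.0108). Slc10a1, the sodium-dependent taurocholate carrier NTCP, had the same difference, -0.26 ± 0.08, but did not pass (adjusted p = 0.0685), at 10.98, 11.36 and 11.80 in knockout livers against 11.41, 11.70 and 11.97 in control livers. It passed when knockout replicate 2 or 5 was left out (adjusted p = 0.0230 and 0.0405). Of 2 further OATP carriers, Slco1a4 differed by -0.27 ± 0.11 (adjusted p = 0.136) and Slco2b1 by -0.05 ± 0.08 (adjusted p = 0.754).

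Slco1a1, an OATP carrier of the blood-facing membrane, had an on-off pattern that crossed the genotypes. It was below 5 in 2 of 10 knockout livers (replicates 6 and 10, at 3.57 and 4.30) and in 2 of 11 control livers (replicates 3 and 9, at 4.27 and 4.47). A further control, replicate 8, stood at 8.14. The other 8 knockout livers held 10.49 to 11.46 and the other 8 control livers 10.84 to 12.04. The genotype difference of -0.08 ± 1.18 (adjusted p = 0.980) had a 95% interval of -2.54 to 2.37, with low livers in each genotype.

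Of the canalicular pumps, Abcg2 and Abcc2 were lower and the bile salt export pump Abcb11 did not differ beyond its spread. Abcg2, a carrier of sulfated and other conjugates, was 5.90, 6.27 and 6.96 in knockout livers against 6.56, 7.0 and 7.41 in control livers. No other gene of the 35 had a larger difference, and 8 of 10 knockout livers lay below every control. The difference was -0.70 ± 0.13 (adjusted p = 0.00394), a 1.63-fold lower level, and was -1.04 in run 1 and -0.45 in run 2. Abcc2, the conjugate pump MRP2, was 10.05, 10.36 and 10.63 in knockout livers and 10.43, 10.61 and 11.02 in control livers, a difference of -0.29 ± 0.07 (adjusted p = 0.0139). All 10 knockout livers were below the control mean of their run and 7 were below every control. Abcb11 was 10.90, 11.22 and 11.40 in knockout livers and 10.79, 11.18 and 11.49 in control livers, and its difference of 0.03 ± 0.08 had a 95% interval of -0.14 to 0.20 (adjusted p = 0.889). Abcb4, the phosphatidylcholine flippase, differed by 0.05 ± 0.10 (adjusted p = 0.838), Abcb1a, a multidrug pump, by 0.01 ± 0.22 (adjusted p = 0.989) and Atp8b1, a flippase that keeps the canalicular membrane asymmetric, by 0.02 ± 0.09 (adjusted p = 0.925).

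Abcg5 and Abcg8 form 1 heterodimer that secretes cholesterol into bile, yet the genotype differences of their genes were unlike. Abcg5 was 8.46, 9.10 and 10.09 in knockout livers and 8.13, 8.79 and 9.17 in control livers, 0.47 ± 0.16 apart and short of the threshold (adjusted p = 0.0846), with 4 knockout livers above every control. It passed without knockout replicate 6 (adjusted p = 0.0304) and with the replicate number as a block (0.0495). That block is no pairing of livers and does not hold run fixed. Replicate 5 is in run 1 among controls and in run 2 among knockouts. Abcg8 was 8.53, 9.06 and 9.84 in knockout livers and 8.54, 9.15 and 9.37 in control livers (difference -0.01 ± 0.14, adjusted p = 0.975). The log2 value of Abcg5 minus that of Abcg8 in the same liver was -0.11 to 0.31, with a median of 0.06, in knockout livers and -0.64 to 0.25, with a median of -0.52, in control livers, and 10 of 11 controls lay below the lowest knockout. The shift of 0.48 had an exact permutation p of 0.000198 (two-sided, adjusted over 3 gene pairs 0.000296), and was 0.45 in run 1 and 0.51 in run 2. It too was picked after the values were seen, so its p is no independent evidence. In the knockout livers the run-centred values of the genes rose and fell together (Pearson r = 0.95, permutation p = 0.00102, adjusted over 20 relations 0.0204; Spearman rho = 0.88, permutation p = 0.00759, adjusted p = 0.0759; n = 10). Without the 2 livers farthest from the median, r was 0.90 (permutation p = 0.0170, adjusted p = 0.339, n = 8), about as large but no longer past the threshold. Within runs, r was 0.88 in run 1 and 0.96 in run 2. In the control livers r was 0.62 and rho 0.45 (permutation p = 0.0464 and 0.153, adjusted p of r 0.309, n = 11). Among these controls r was 0.99 in run 1 (n = 5) and 0.25 in run 2 (n = 6). It was 0.39 without the 2 livers farthest from the median (n = 9). Whether the correlation differed between genotypes was not tested. None of the other 19 relations, among 10 pairs and both genotypes, passed. By Spearman the closest was Fgfr4 with Klb in control livers (rho = 0.78, permutation p = 0.00265, adjusted p = 0.0530). Their Pearson r was 0.60 there (permutation p = 0.0201, adjusted p = 0.201) and 0.25 in knockout livers (permutation p = 0.506, adjusted p = 0.674).

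**Figure D4:**
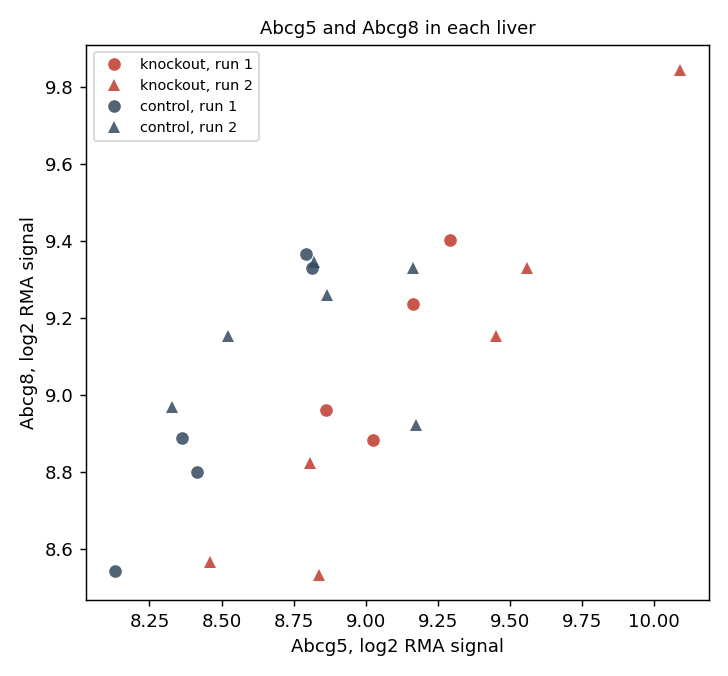
Log2 values of Abcg5 (horizontal axis) and Abcg8 (vertical axis) in each of the 21 livers, with knockout livers in red, control livers in blue-grey, and run 1 as circles and run 2 as triangles. At a given Abcg8 value most knockout livers lie to the right of the control livers, and 1 knockout liver stands far out at 10.09 for Abcg5 and 9.84 for Abcg8.

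None of the 5 basolateral exporters passed. Of their 5 differences 4 were below 0, as were those of 13955 of the 25428 genes. Abcc3, the conjugate pump MRP3, differed by -0.27 ± 0.15 (adjusted p = 0.301), Abcc4, MRP4, by -0.22 ± 0.15 (adjusted p = 0.417) and Abcc6, a basolateral ATP-binding cassette protein, by -0.21 ± 0.08 (adjusted p = 0.117). Slc51a, one part of the organic solute transporter, lay near the lower quartile of the array, at 2.76 to 3.01 in knockout livers and 2.81 to 3.05 in control livers (difference -0.06 ± 0.04, adjusted p = 0.410). Its partner Slc51b was 4.54, 5.05 and 6.82 in knockout livers and 3.27, 4.96 and 5.86 in control livers (difference 0.48 ± 0.31, adjusted p = 0.384).

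Sample numbers in the descriptions fall in 2 consecutive runs, 4 knockout and 5 control livers in the first and 6 of each in the second, and the labels do not call them batches. Of the 35 differences, 24 had the same sign in both runs and 11 did not, beside 14746 of the 25428 genes with the same sign. Among the 8 genes that passed, the sign was negative in both runs in each, from -0.20 to -1.04. These 8 were picked by the fit over both runs, so their shared sign is no independent evidence. None of the 35 had a genotype by run term past the threshold (lowest adjusted p 0.192), against 0.0315% of all genes.

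**Figure D5:**
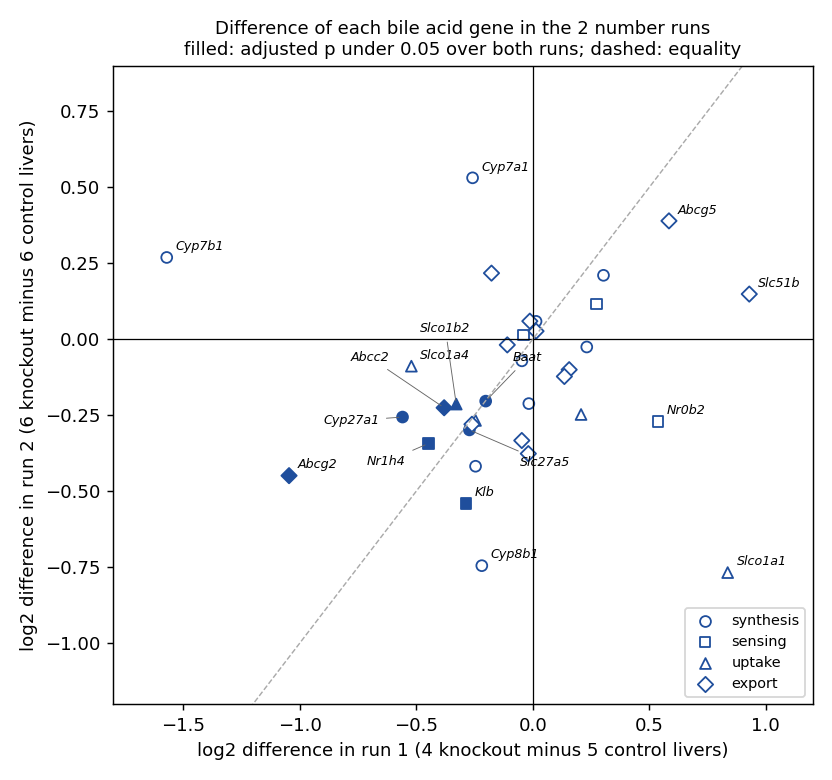
Genotype difference in run 2 (vertical axis) against that in run 1 (horizontal axis) for the genes of the set, on the log2 scale. The 8 lower genes, which were picked over both runs, lie in the quadrant where both are negative. Cyp7b1 lies at -1.57 in run 1 and 0.27 in run 2.

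In a wider list of pathway genes (other synthesis enzymes, regulators and transporters), 52 of 58 symbols were measured, 4 were lower and 2 higher, which is 7.69% and 3.85% of those measured beside 4.05% and 3.28% of all genes. Those shares are near the background, and the median difference was -0.04. Nr5a2, the nuclear receptor LRH-1 that activates Cyp7a1 and Cyp8b1, was 8.13, 8.46 and 8.58 in knockout livers and 8.48, 8.83 and 9.06 in control livers, a difference of -0.38 ± 0.07 (adjusted p = 0.0023). Nr1i3, the receptor CAR, was 8.08, 8.49 and 9.5 in knockout livers and 8.88, 9.29 and 9.62 in control livers (-0.61 ± 0.16, adjusted p = 0.0239). The peroxisomal carrier Abcd3 was lower by -0.40 ± 0.08 (adjusted p = 0.00782) and Akr1c6 by -0.44 ± 0.12 (adjusted p = 0.0274, and 0.0546 without knockout replicate 4). The signal of Akr1c6 was low, at 3.52 to 4.62 in knockout livers and 4.28 to 5.30 in control livers. Abcb1b, a multidrug pump, was higher, at 4.54, 5.74 and 7.29 in knockout livers against 3.76, 4.37 and 5.34 in control livers, a 2.55-fold difference on average (1.35 ± 0.31, adjusted p = 0.0124) that was 0.43 in run 1 and 2.03 in run 2. Within a liver, its log2 value minus that of Abcb1a was -2.03 to -0.08 in knockout livers against -3.10 to -1.13 in control livers, a shift of 1.34 that was 0.28 in run 1 and 2.13 in run 2 (exact permutation p = 0.000679 over both runs and 0.46 in run 1), again a pair picked after its values were seen. Rxra, the partner that nuclear receptors such as FXR bind, was higher by 0.14 ± 0.04 (adjusted p = 0.0462), a call lost when any of 17 single livers was left out. The hepatocyte factor Hnf4a (0.13 ± 0.05, adjusted p = 0.113), Nr1i2, the receptor PXR (0.30 ± 0.11, adjusted p = 0.0940, and 0.0406 without control replicate 10), and Fgf15 (-0.07 ± 0.06, adjusted p = 0.508) did not pass. Fgf15 was 3.12 to 3.64 in knockout livers and 3.34 to 3.64 in control livers, under the array median of 3.75, so its difference says little.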

How the data were processed

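Total RNA of whole liver lysates from 10 knockout and 11 control mice was measured on Affymetrix arrays as biotinylated cRNA, per the labels' protocols. The deposited table held log2 values that the authors made with RMA, per the submitters' processing notes, a method of background correction, quantile normalisation and 1 summary value per gene. The array's design and its genome build are not given in the sources used here. Scanner files were not used here, and depth does not apply to arrays: their number limits the precision. Symbols came from the platform annotation (24705 of 25428 genes were named). Members of the gene set, the wider and marker lists, the gene pairs and the naming rule were chosen with earlier results of these data known, so they are no independent evidence. The rule named all 35 members, every wider-list gene past the threshold, Hnf4a, Nr5a2, Nr1i2, Nr1i3 and Fgf15, and up to 3 marker genes a list. The animals are called biological replicates in the labels.

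Genotype was tested by limma 3.58.1 (R 4.3.3) with a term for run over all 21 arrays, with no filter on low values, and p-values were adjusted by Benjamini-Hochberg over all genes. A second fit held a genotype by run term. Differences between paired genes within a liver were permuted exactly within runs (116424 arrangements), and correlations used 100000 permutations within runs. Alternatives are in the closing section. The procedure was tested on simulated data. Figures were drawn with matplotlib 3.10.9. Promoters were scanned for exact matches on both strands.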

Additional observations from a re-analysis of the deposited data

Results flagged for a closer look

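In 3 of the 44 genes tested, 1 knockout liver stood apart from the other 9 by Dixon's ratio against its 95% critical value for 10 samples. Chance gives about 1 such gene in 20. Cyp27a1 was 10.93 in knockout replicate 5, where the next liver had 10.57 and the lowest 10.28 (ratio 0.547). Akr1d1 was 8.67 in knockout replicate 9, with 9.07 next and 9.49 as the highest (ratio 0.486). Abcb4 was 10.85 in knockout replicate 2, with 10.37 next and 9.93 as the lowest (ratio 0.524). These ratios used the livers of both runs without centring. Replicate 2 is in run 1, where Abcb4 had a control mean of 10.47 and a highest control of 10.79. The control mean in run 2 was 9.89. The clock gene Per1 had a genotype difference that changed between runs by -1.41, run 2 minus run 1 (adjusted p of the genotype by run term 0.0259): knockout minus control was 1.22 in run 1 and -0.19 in run 2.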

How the results depend on the processing

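The 8 lower genes became 1 in run 1 alone and 2 in run 2 alone, 9 once genes of below-median mean were dropped, 7 with the replicate block in place of the run term, 7 with array weights and 6 without the array least like its group in each genotype (a choice made after seeing the data), and 7 to 9 when single livers were left out. Counts of calls over all genes, in either direction, were 3 in run 1 alone and 1287 in run 2 alone. Without single livers they were 1194 (without control replicate 8) to 2389 (without control replicate 1). Of the calls over all genes, 1 was lower in run 1 alone and 735 in run 2 alone. Higher members were 0 by limma and 1 with the replicate block, 1 without the least typical arrays (Abcg5 each time), and 0 to 2 without single livers. In the wider list, lower genes numbered 0 in run 1 alone, 2 in run 2 alone and 3 to 7 without single livers (7 without knockout replicate 2), and the higher ones 1 without the run term, 0 in run 1 alone, 1 in run 2 alone, 1 without low-mean genes, 1 with a trended and robust prior, 1 without the least typical arrays and 1 to 2 without single livers. The 1 correlated pair became 0 without the 2 livers farthest from the median. Klb missed the threshold with the replicate block (adjusted p = 0.0701), with weights (0.0582) and without the least typical arrays (0.0650), as did Baat in that last setting (0.0588).

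Signs reversed only for genes that did not pass. In run 1 alone these were Cyp7a1 (-0.26), Slco1a1 (0.84), Slco2b1 (0.21), Abcb11 (-0.012), Abcb4 (-0.18) and Abcg8 (0.14), and in run 2 alone Cyp7b1 (0.27), Hsd3b7 (-0.025), Nr0b2 (-0.27), Gpbar1 (0.014) and Abcb1a (-0.10). Gpbar1 was 0.0023 with the replicate block and 0.0026 without the least typical arrays, where Slco1a1 was 0.70 and Abcg8 0.032; with weights Nr0b2 was -0.089, Abcb1a -0.045 and Abcg8 0.035. Leaving out single livers gave -0.028 to 0.088 for Scp2, -0.038 to 0.22 for Nr0b2, -0.061 to 0.052 for Gpbar1, -0.72 to 0.52 for Slco1a1, -0.014 to 0.064 for Abcb11, -0.0053 to 0.11 for Abcb4, -0.10 to 0.12 for Abcb1a, -0.095 to 0.050 for Abcg8 and -0.027 to 0.059 for Atp8b1. The cause was not tested. Same-numbered livers did not pair: over 10 numbers their deviations correlated at -0.05 to 0.17. Replicate 5 also lay in run 1 among controls and in run 2 among knockouts, so the replicate block does not hold run fixed. No sex term was run, since all 21 livers had the pattern of females, with Xist at 10.45 to 10.97 and 3 Y-linked genes at 2.32 to 2.98.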
